A study of Mus musculus with 10 samples.

Results

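The Hox genes of paralogue groups 5 to 8 (Hoxa5, Hoxa7, Hoxb5, Hoxb6, Hoxb7, Hoxb8, Hoxc5, Hoxc6, Hoxc8 and Hoxd8) were matched by symbol among the 20006 genes with a value in every embryo, and 10 of 10 symbols were found. The series holds RNA-seq libraries, made with the SMART-Seq v4 kit, of 10 mouse embryos taken whole at embryonic day 7.5, 5 of them wild type (WT) and 5 carrying mutations in both Axin1 and Axin2 (genotype Axin1;Axin2 mutant, libraries labelled DKO). The question the study set was which genes differ in expression between these genotypes. The kind of allele, the strain, the sex and the litters were not given in the sources used here. The p-values therefore set differences against the spread between these embryos only. Each library came from a whole embryo made of many cell types, in which more cells of a type and more RNA per cell cannot be told apart.

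Hox genes encode homeodomain transcription factors that lie in 4 clusters, and their order along a cluster follows the order in which they come on and the level along the body axis at which they act. The genes of the middle groups are best known for patterning the neck, forelimb level and thorax. In the gastrulating embryo Hox transcription starts in the posterior primitive streak and the adjoining extra-embryonic mesoderm, and WNT signalling through β-catenin, the caudal factors Cdx1, Cdx2 and Cdx4 and retinoic acid are known inputs. Axin1 is the scaffold protein of the β-catenin destruction complex, and Axin2 is its close relative and is itself a WNT target.

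The 10 genes lie in all 4 clusters of the build mm10 (GRCm38), with coordinates from the GENCODE M21 annotation. Hoxa5 (ENSMUSG00000038253.6, chr6:52201754-52204587) and Hoxa7 (ENSMUSG00000038236.8, chr6:52214491-52221854) are on the minus strand. Hoxb8 (ENSMUSG00000056648.5, chr11:96281905-96285315), Hoxb7 (ENSMUSG00000038721.8, chr11:96286623-96290162), Hoxb6 (ENSMUSG00000000690.5, chr11:96292476-96301569) and Hoxb5 (ENSMUSG00000038700.4, chr11:96303336-96306121) follow each other on the plus strand. Hoxc8 (ENSMUSG00000001657.7, chr15:102990607-102994111), Hoxc6 (ENSMUSG00000001661.5, chr15:102998257-103011881) and Hoxc5 (ENSMUSG00000022485.3, chr15:102967443-103017429) are on the plus strand, as is Hoxd8 (ENSMUSG00000027102.4, chr2:74704615-74707933). The library chemistry does not record strand, and 586 exon bases of Hoxa7 (20.4%) are shared with the antisense gene Hoxaas3 and 100 bases of Hoxb5 (3.59%) with Hoxb5os, so reads there cannot be told apart. On the same strand, 166 exon bases of Hoxc5 (5.37%) are shared with Hoxc10. No exon of the other 7 genes overlapped another annotated gene.

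Promoters are shown because motifs of the caudal, WNT-dependent and Hox factors can be read from them. RefSeq windows of 250 bases before to 50 bases after the start (GRCm38.p6) were at hand for 4 of the 10 genes, Hoxa5, Hoxa7, Hoxb8 and Hoxd8. Both strands were searched for the letters CTTTGA (core of the TCF/LEF factors, which carry the β-catenin signal), TTTATG (bound by CDX factors) and TGATNNAT (bound by HOX-PBX pairs), none of which overlapped another. The bases before the RefSeq start are printed 5′ to 3′ on the gene's strand, with the matches in capitals. For Hoxa7 they run only up to the first annotated exon base, and they lie inside the gene's GENCODE span given above.
Hoxa7, chr6:52218712-52218823, minus strand: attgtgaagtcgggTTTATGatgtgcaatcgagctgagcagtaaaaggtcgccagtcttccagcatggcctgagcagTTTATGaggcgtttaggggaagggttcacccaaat
Hoxb8, chr11:96281655-96281904, plus strand: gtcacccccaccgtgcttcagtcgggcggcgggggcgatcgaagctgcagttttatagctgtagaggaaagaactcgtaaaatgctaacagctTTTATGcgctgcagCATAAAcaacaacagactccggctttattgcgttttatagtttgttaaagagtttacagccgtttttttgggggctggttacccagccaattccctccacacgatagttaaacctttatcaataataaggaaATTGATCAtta
Hoxd8, chr2:74704365-74704614, plus strand: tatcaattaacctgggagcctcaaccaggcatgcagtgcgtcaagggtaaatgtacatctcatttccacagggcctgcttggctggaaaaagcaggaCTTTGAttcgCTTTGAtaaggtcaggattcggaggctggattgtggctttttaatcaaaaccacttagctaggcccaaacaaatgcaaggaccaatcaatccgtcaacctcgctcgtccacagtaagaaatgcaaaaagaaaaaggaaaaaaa
Hoxa7 and Hoxb8 each held 2 matches to TTTATG, starting 236 and 173 bases before the start in Hoxa7 and 157 and 143 bases before it in Hoxb8, the last on the opposite strand. Hoxb8 also held 1 match to TGATNNAT, 11 bases before the start on the opposite strand. Hoxd8 held 2 matches to CTTTGA, 153 and 143 bases before the start, and the Hoxa5 window held none of these letters. Among all 27025 RefSeq promoter windows of the same length, 12.1% held TTTATG, 16.2% CTTTGA and 9.04% TGATNNAT, so matches of this kind are frequent and describe the letters only.

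The Hox clusters also carry the miR-196 genes, whose products are known to repress several middle Hox mRNAs. The mature sequences are shown with the seed (bases 2 to 8) in capitals. Both share the seed AGGUAGU, and miRNA levels were not measured in these libraries.
mmu-miR-196a-5p: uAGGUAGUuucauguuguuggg
mmu-miR-196b-5p: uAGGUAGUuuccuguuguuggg
The seed match ACTACCT was present in the 3′ UTR of 5 of the 10 genes, with 4 matches in Hoxa7, 2 in Hoxc8 and 1 each in Hoxa5, Hoxb6 and Hoxb7. It was present in 6.87% of the 13675 tested genes that had an annotated 3′ UTR. The Hoxa7 and Hoxb7 sites below are the seed matches that pair with miR-196a at the most bases (14 of 22), with the seed match in capitals. The Hoxb8 site is shown because it pairs at 21 of 22 bases, in capitals, without a full seed match. The best site in Hoxd8, also without a seed match, paired at 15 of 22. Positions are those of the first base of the seed match for Hoxa7 and Hoxb7 and of the first printed base for Hoxb8.
Hoxa7, 3′ UTR position 500: tactactagccctaaACTACCTa
Hoxb7, 3′ UTR position 168: actgtaaaaaaatatACTACCTa
Hoxb8, 3′ UTR position 418: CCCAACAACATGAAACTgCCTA
The genes with and without a seed match are among those described by embryo below.

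Expression is given as scaled counts, that is, reads per gene after the authors' division by a size factor for each library. Recovered reads summed to 20744547 to 28505209 per embryo, and a gene at 3 reads would stand at 2.51 to 3.41 scaled counts. Axin1 was 3551 ± 245 scaled counts in WT and 1343 ± 583 in the mutants (log2 fold change -1.49 ± 0.21 SE, limma, adjusted p = 0.000614). Its level in the library labelled mutant 4 was 65.8% of the WT mean, and that library stood apart from the other mutants on the second principal component (-91.3 against -9.69 to 29.3), so the counts over the middle Hox genes are also given without it, as are those over other lists that it moved. Axin2 was 441 ± 43.1 in WT and 448 ± 114 in the mutants (adjusted p = 0.981), and which part of either transcript the alleles remove is not given. Markers of epiblast, visceral endoderm and trophoblast were detected in every library.

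Messenger RNA of the middle Hox genes was higher in the mutants for 10 of the 10 genes. The rise ran from 1.73-fold for Hoxb5 to 22.4-fold for Hoxc6 on the log2(scaled count + 1) scale, and 9 of the 10 rose at least 4-fold. All 10 passed the filter on low values (10 scaled counts or more on average), and all 10 passed the threshold of adjusted p = 0.05 in limma, against 11.4% of the 15429 genes tested that were higher in mutants by the same rule. The WT means of Hoxb8 (8.33), Hoxc5 (8.15) and Hoxc6 (5.02) were below that filter, so these 3 were tested because of their mutant values, and with no filter the number called was again 10. Of the genes tested, 1.39% both passed the threshold and rose at least 4-fold. The median log2 fold change was 2.93 over these genes and 0.0128 over all genes tested. Every mutant was above every WT embryo for 9 of the 10 genes, against 7.14% of all genes tested. The same 10 genes passed with edgeR's quasi-likelihood test (10.8% of all genes higher), with DESeq2 (14.3%) and without the library labelled mutant 4 (13.4%).

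**Figure D1:**
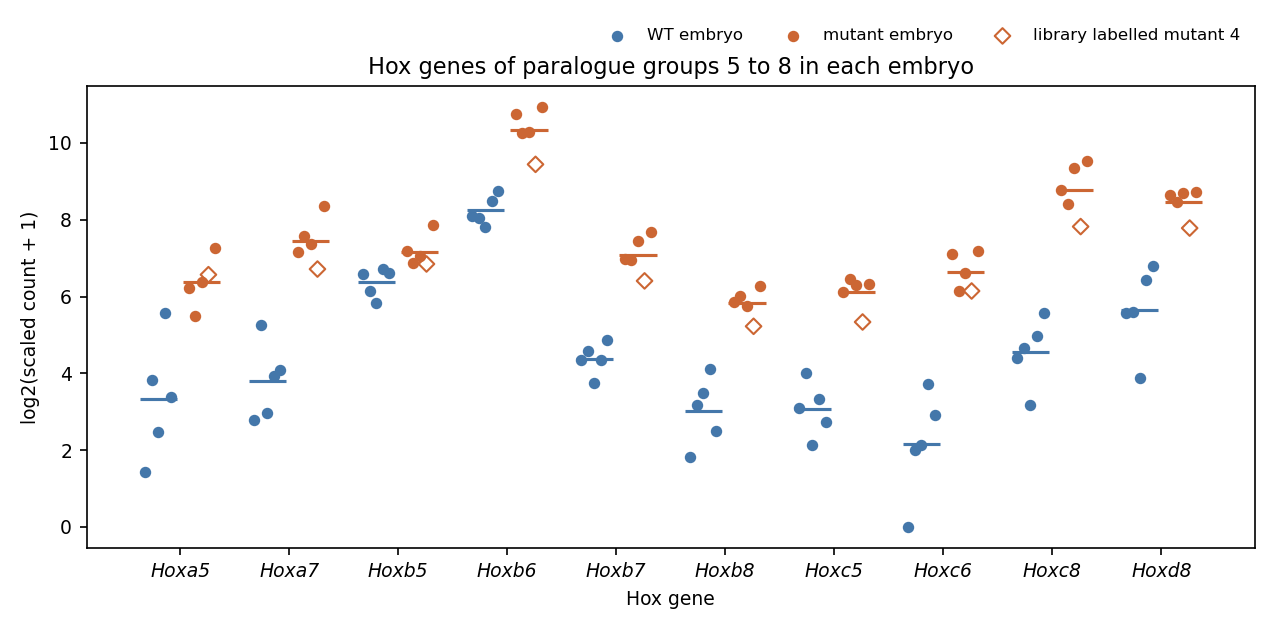
Each point is 1 embryo, as log2(scaled count + 1), and bars are the means of 5 WT (blue) and 5 mutant (orange) embryos, plotted in replicate order. The groups overlap only in Hoxa5, the gap is smallest in Hoxb5, and the library labelled mutant 4 (open diamond) is the lowest mutant for 9 of the 10 genes.

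The group 5 genes were the least uniform. Hoxb5, which acts in the enteric nervous system and in placing the shoulder, measured 95.3, 69.4, 55.6, 104 and 96.7 scaled counts in WT embryos 1 to 5 and 143, 116, 131, 114 and 234 in mutants 1 to 5. The lowest mutant was thus just above the highest WT embryo, and mutant 5 was well above the rest. The log2 fold change was 0.79 ± 0.25 SE (limma, adjusted p = 0.0401), and this call was the weakest of the set: it missed the threshold (adjusted p = 0.0536 to 0.0884) in 7 of 22 alternatives, each leaving out a single embryo (WT 1, 2, 3 or 5, or mutant 1, 3 or 5).

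Hoxa5, needed for lung and airway development, measured 1.67, 13.1, 4.54, 46.5 and 9.39 in WT and 73.6, 44.0, 81.8, 94.0 and 152 in the mutants. WT 4 was far above the other WT embryos and slightly above mutant 2, so the groups overlapped. The log2 fold change was 3.05 ± 0.65 SE (limma, adjusted p = 0.00569). Without WT 4 it was 3.61, and its lowest value among the alternatives was 2.51.

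Hoxc5, a partner of Hoxa5 and Hoxb5 at neck and forelimb level, measured 7.52, 15.1, 3.41, 9.09 and 5.63 in WT and 68.9, 87.1, 77.3, 39.4 and 79.8 in the mutants. The groups were well separated, and mutant 2 was highest here, the only gene of the set for which mutant 5 was not. The log2 fold change was 3.05 ± 0.39 SE (limma, adjusted p = 0.000277). In the 5 WT libraries together the gene had 42 reads, so its WT level rests on few reads.

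Among the group 6 genes, Hoxb6, which is expressed early in lateral plate mesoderm and the allantois, was the most abundant in read counts. It measured 275, 264, 225, 359.7 and 427 in WT and 1727, 1215, 1249, 695 and 1960.1 in the mutants. Mutant 4 was the lowest mutant and still above the highest WT embryo. The log2 fold change was 2.09 ± 0.26 SE (limma, adjusted p = 0.000253).

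Hoxc6, which marks forelimb and anterior thoracic levels, was near the limit of detection in WT, at 0, 3.02, 3.41, 12.1 and 6.57 scaled counts, with no read in WT 1 and 25 reads in the 5 WT libraries together. It measured 138, 69.9, 96.3, 69.7 and 145 in the mutants, with 527 reads in all. The groups did not overlap, and the lowest mutants, 2 and 4, were nearly equal. The log2 fold change was 4.48 ± 0.59 SE (limma, adjusted p = 0.000358). It ran from 3.50 with a pseudocount of 5 to 4.78 with 0.5, so its size is less certain than its direction. The ratio of the group means was 20.7.

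The third gene of group 6, Hoxa6, is not among the 10. It stood below the filter on low values, at 2.51, 0, 0, 0 and 0 in WT and 2.83, 9.57, 2.24, 7.07 and 11.4 in the mutants. Most of these values are within a few reads of 0.

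In group 7, Hoxa7 and Hoxb7 are both known for roles in the upper thoracic skeleton. Hoxa7 measured 5.85, 37.2, 6.81, 14.1 and 16.0 in WT and 142, 189, 165, 104 and 329.5 in the mutants, with WT 2 highest among WT embryos and mutant 5 far above the other mutants. Its log2 fold change was 3.64 ± 0.47 SE (limma, adjusted p = 0.000289). Hoxb7 measured 19.2, 23.1, 12.5, 19.2 and 28.2 in WT and 125, 124, 173, 83.9 and 203 in the mutants. The WT embryos were close together, and every mutant was well clear of them. Its log2 fold change was 2.71 ± 0.30 SE (limma, adjusted p = 0.000117).

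In group 8, Hoxc8, which sets the identity of motor neurons at forelimb level and of thoracic vertebrae, had the second largest change of the set. It measured 20.1, 24.2, 7.95, 30.3 and 46.9 in WT and 438, 342, 646, 225 and 745 in the mutants. Mutants 3 and 5 were highest, and the lowest mutant was several times the highest WT embryo. The log2 fold change was 4.23 ± 0.44 SE (limma, adjusted p = 7.71e-05), and the ratio of the means was 18.5.

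Hoxb8, known for its part in spinal cord sensory circuits and in microglia, measured 2.51, 8.05, 10.2, 16.2 and 4.69 in WT and 56.6, 64.1, 52.6, 36.4 and 76.0 in the mutants. It was among the scarcest genes in both genotypes, with 41 reads in all WT libraries and 290 in all mutants, and the groups did not overlap. Its log2 fold change was 2.80 ± 0.43 SE (limma, adjusted p = 0.000973). Hoxd8, which acts with Hoxb8 and Hoxc8 in the trunk skeleton, measured 46.8, 47.3, 13.6, 85.9 and 111 in WT and 400.1, 351, 417, 219 and 422 in the mutants. WT 3 was low, and the mutants other than mutant 4 lay close together. Its log2 fold change was 2.81 ± 0.46 SE (limma, adjusted p = 0.00129). Apart from Hoxb5, every gene of the set passed the threshold in every alternative in which it was tested; Hoxb8 and Hoxc5 were not tested where a mean of at least 50 was required.

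Levels can be compared between genes only per length, and per kilobase of exon the order changed between the genotypes. In WT embryos Hoxb6 led at 158 ± 41.7 scaled counts per kb (SD, n = 5), followed by Hoxb5 at 30.2 ± 7.41 and Hoxd8 at 22.2 ± 13.8. Hoxb7 (13.2), Hoxc8 (9.14), Hoxa5 (8.01), Hoxa7 (5.56), Hoxb8 (3.16), Hoxc5 (2.64) and Hoxc6 (2.09) followed as mean scaled counts per kb. Only Hoxb6 and Hoxb5 were neighbours in the WT order whose ranges over embryos did not overlap. Compared within each embryo, Hoxb7 was above Hoxc8 in all 5 WT embryos, and the other overlapping neighbours kept their order in fewer.

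In the mutants Hoxb6 again led, at 697 ± 251 scaled counts per kb (SD, n = 5), and Hoxc8 followed at 169 ± 75.7 and Hoxd8 at 132 ± 30.7. Hoxb7 (91.7), Hoxa7 (64.6), Hoxb5 (53.0), Hoxa5 (47.5), Hoxc6 (43.1), Hoxc5 (22.8) and Hoxb8 (21.7) came next as mean scaled counts per kb. The neighbours without overlapping ranges were Hoxb6 with Hoxc8 and Hoxc6 with Hoxc5. Compared within each embryo, Hoxd8 was also above Hoxb7, and Hoxb7 above Hoxa7, in all 5 mutants. The other overlapping neighbours kept their order in fewer mutants. Hoxc8 moved up from rank 5 to 2 and Hoxb5 down from rank 2 to 6. The order was the same when exon bases shared with other genes were left out of the length.

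**Figure D2:**
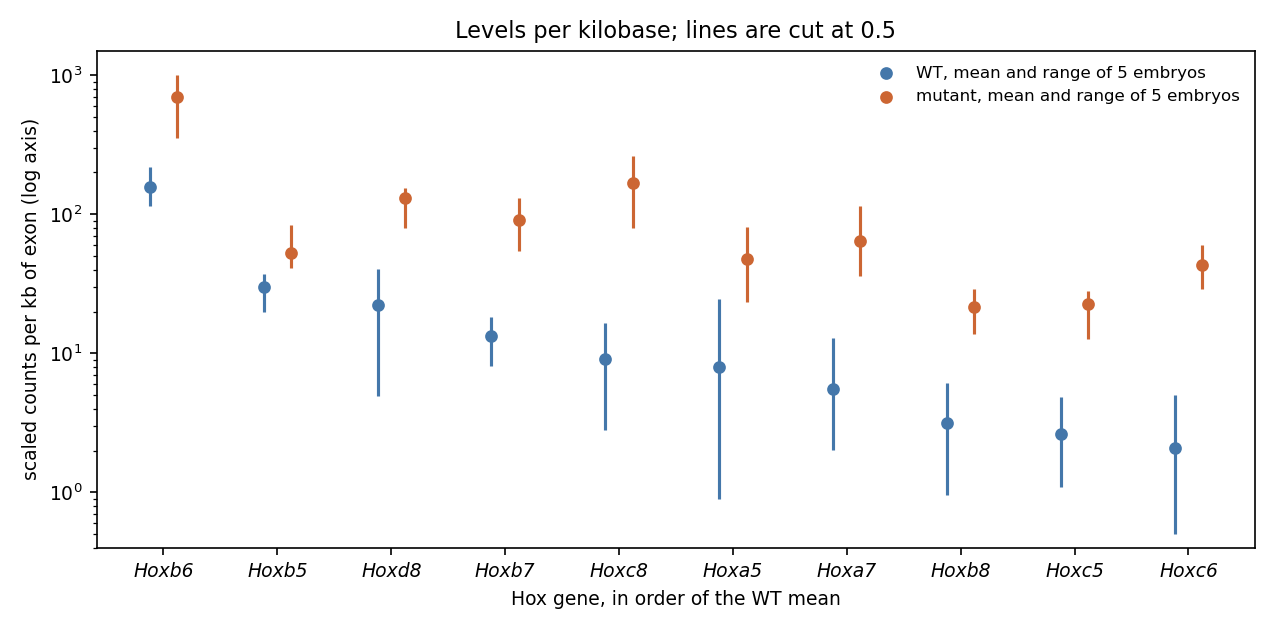
Points are means and vertical lines the lowest to highest of 5 embryos, in scaled counts per kb of exon on a log axis, for WT (blue) and mutants (orange). Genes are in the order of the WT mean: Hoxb6 stands first in both genotypes, at 158 and 697, while Hoxb5 rises least and Hoxc8 passes it.

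Summed per kb over the 10 genes, the level was 254 ± 75.6 in WT (161.5 to 344.3) and 1343 ± 438 in the mutants, where the library labelled mutant 4 was lowest at 751 and mutant 5 highest at 1941. Hoxb6 made up 62.9% ± 5.35 of the WT sum and 51.4% ± 4.86 of the mutant sum. Hoxb5 fell in share from 12.2% ± 2.18 to 4.05% ± 0.868, with no overlap between the genotypes (lowest WT 10.1%, highest mutant 5.46%). The share of Hoxc8 went from 3.38% ± 1.11 to 12.3% ± 2.83, again without overlap. These shares describe the make-up of the set and were not tested apart from the gene pairs that follow.

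Whether the genes rose by unequal amounts was tested on the log2 ratio of 22 pairs of Hox genes within each embryo, with a two-sided exact permutation test over all assignments of the embryos to groups of 5 (smallest possible p = 0.00794) and adjustment over the 22 pairs. The ratio differed in 4 pairs, each with adjusted p = 0.0437. Hoxb6 over Hoxb5 ran from 1.52 to 2.13 in WT and from 2.60 to 3.58 in the mutants, a difference of 1.31. Hoxc5 over Hoxb5 ran from -3.88 to -2.13 in WT and from -1.54 to -0.41 in the mutants, a difference of 2.26. In both pairs every mutant had less Hoxb5 relative to its partner than any WT embryo.

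Hoxc6 over Hoxb6 ran from -8.11 to -4.78 in WT and from -4.10 to -3.30 in the mutants, a log2 difference of 2.39 that depends on the few WT reads of Hoxc6 (1.42 with a pseudocount of 5, 2.69 with 0.5). Hoxd8 over Hoxc8 ran from 0.71 to 1.47 in WT and from -0.82 to 0.04 in the mutants, a difference of -1.42. Hoxd8 thus had more scaled counts than Hoxc8 in every WT embryo, and the pair was near equal or inverted in the mutants. All 4 pairs stood at the smallest possible p. With adjustment over the 22 pairs, such a pair passed only where enough other pairs also had a small p. The count could thus fall from 4 to 0 at once. The number of pairs past the threshold was not stable. It was 0 without WT 1 and without each of mutants 1, 2, 3, 4 and 5, and 7 without WT 5. The direction of these 4 differences was kept in each of those fits.

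**Figure D3:**
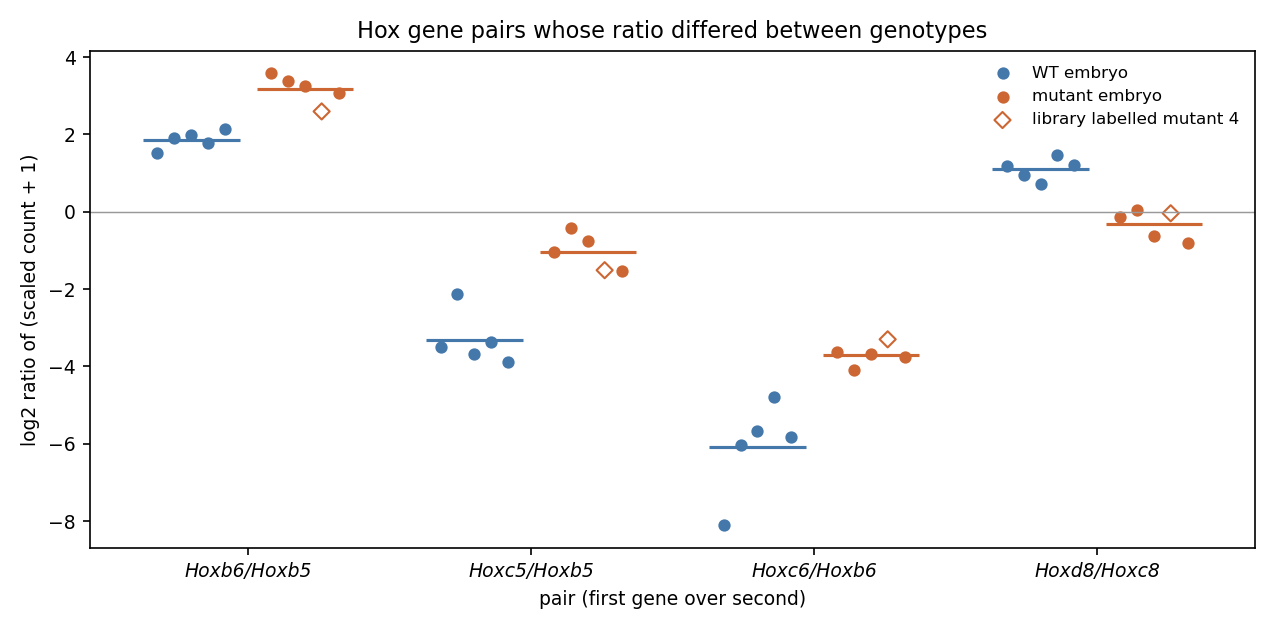
Points are embryos and bars group means of the log2 ratio of (scaled count + 1) of the first gene over the second, for the 4 of 22 pairs with adjusted p = 0.0437. In each pair the 5 WT (blue) and 5 mutant (orange) embryos do not overlap, and the library labelled mutant 4 is drawn as an open diamond.

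The other 18 pairs missed the threshold. Hoxb7 over Hoxb6 differed by 0.62 (adjusted p = 0.0873, exact permutation), Hoxb5 over Hoxa5 by -2.27 (adjusted p = 0.0698, exact permutation) and Hoxb5 over its neighbour Hoxb4 by 0.54 (adjusted p = 0.0998, exact permutation). Hoxc5 over Hoxa5 differed by -0.0029 and Hoxd8 over Hoxb8 by 0.0020 (adjusted p = 1 each, exact permutation), with log2 ratios that varied widely among WT embryos (SD 1.41 and 1.52), so unequal change in these pairs was not detectable here.

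Along the Hoxb cluster the fitted log2 fold changes stood in the order of the genes, from Hoxb1 to Hoxb9, in the main fit and in 18 of 22 alternatives. Hoxb1 fell by 2.78 ± 0.48 SE (adjusted p = 0.00168, limma), while Hoxb2 (-0.73, adjusted p = 0.0644), Hoxb3 (-0.19, adjusted p = 0.800) and Hoxb4 (0.25, adjusted p = 0.516) did not pass the threshold in limma. The middle genes Hoxb5 (0.79), Hoxb6 (2.09), Hoxb7 (2.71) and Hoxb8 (2.80) followed, and Hoxb9 stood at 3.44 ± 0.41 SE. This is an order of fitted values, and most of its steps were not resolved. By exact permutation, Hoxb6 over Hoxb5 passed (adjusted p = 0.0437). Hoxb5 over Hoxb4 (0.0998), Hoxb7 over Hoxb6 (0.0873) and Hoxb9 over Hoxb8 (0.200) did not. Steps among Hoxb1 to Hoxb4 were not tested as pairs. Hoxb7 and Hoxb8 were too close to order: the ratio of this pair did not pass (adjusted p = 0.925, exact permutation), and Hoxb7 stood above Hoxb8 with a pseudocount of 5 (where Hoxb8 was at 2.28), without WT 1 (where Hoxb7 was at 2.70) and without WT 5 (2.84 against 2.68). The middle genes of the Hoxc cluster stood at 3.05 for Hoxc5, 4.48 for Hoxc6 and 4.23 for Hoxc8. These 3 were out of gene order in the main fit and in 19 of 22 alternatives. They stood in order in 2, with a pseudocount of 5 (2.54, 3.50 and 3.99) and without WT 1 (3.06, 3.95 and 4.19). Exons of Hoxb2 and Hoxb3 overlap those of the antisense gene Hoxb3os.

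**Figure D4:**
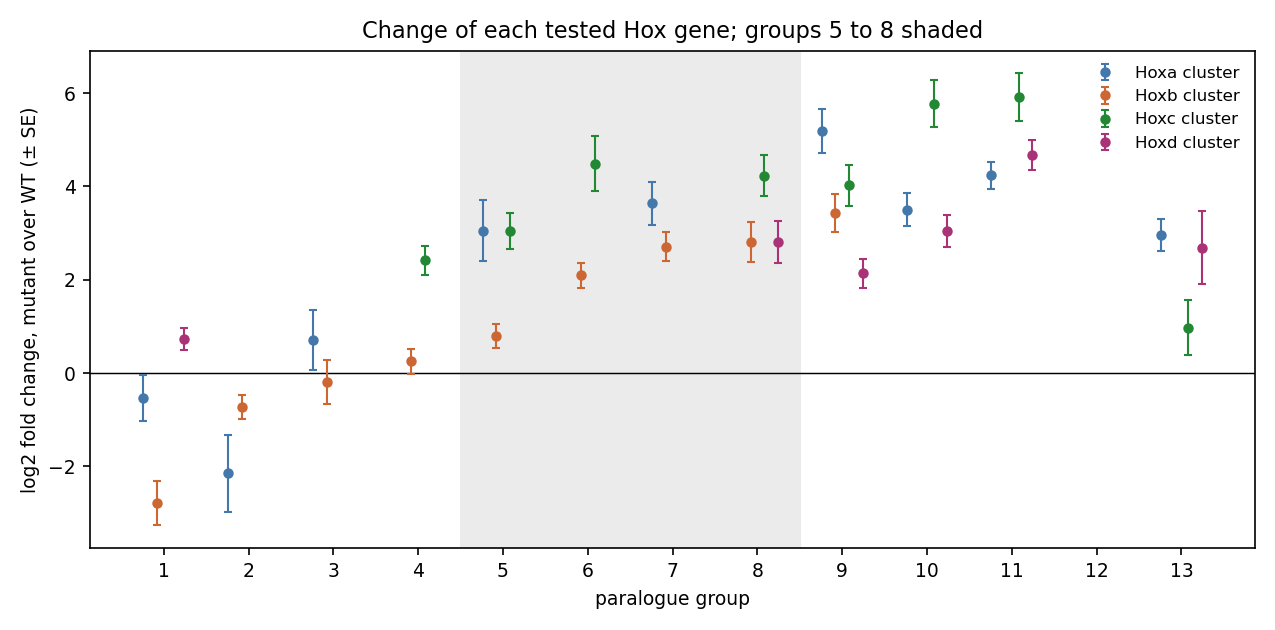
Log2 fold change of mutant over WT with its standard error (limma, n = 5 embryos per genotype) for each tested Hox gene, by paralogue group and cluster, with groups 5 to 8 shaded. Values lie on both sides of 0 in groups 1 to 4 and above 0 from group 5 on, and in the Hoxb cluster they run from -2.78 at Hoxb1 to 3.44 at Hoxb9, with Hoxb7 and Hoxb8 nearly level.

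Hox genes outside the middle groups were counted in the same fit. In groups 1 to 4, 9 of 12 listed genes were tested, of which 2 rose and 1 fell (median log2 fold change -0.19), where 11.4% of all tested genes rose and 13.8% fell. Hoxc4 rose by 2.42 ± 0.31 SE (adjusted p = 0.000293, limma) and Hoxd1 by 0.73 ± 0.23 SE (adjusted p = 0.0379, limma), the latter called in 12 of 22 alternatives, and Hoxb1, an early gene of the posterior streak and hindbrain, was the gene that fell. The count of those that rose was 1 when WT 1, 3, 4 or 5 or mutant 1, 2, 3 or 5 was left out singly, and the count of those that fell was 2 without WT 1, WT 3 or mutant 4. In groups 9 and 10, 7 of 7 genes rose (median 3.50), led by Hoxc10 (5.78 ± 0.51 SE) and Hoxa9 (5.18 ± 0.47 SE). In groups 11 to 13, 5 of 6 tested genes rose (median 3.60), among them Hoxd11 (4.67 ± 0.32 SE) and Hoxa11 (4.24 ± 0.28 SE). In the test of pairs, 0 of the 8 ratios across the edges of the set passed, by the exact permutation test. Toward group 9 the log2 ratio differed by 1.54 for Hoxa9 over Hoxa7, 0.63 for Hoxb9 over Hoxb8, -0.21 for Hoxc9 over Hoxc8 and -0.67 for Hoxd9 over Hoxd8. Toward group 4 it differed by 2.20 for Hoxa5 over Hoxa4, 0.54 for Hoxb5 over Hoxb4, 0.63 for Hoxc5 over Hoxc4 and 0.61 for Hoxd8 over Hoxd4. Hoxa4 and Hoxd4 were below the filter on low values, and the ratios over them varied widely among WT embryos (SD 2.11 and 1.66). Other genes share 52.3% of the exon bases of Hoxd4.

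Of the 3 caudal genes, whose products activate trunk Hox genes, 2 rose in limma, 1 in edgeR and 3 without mutant 4. Of all tested genes, 11.4%, 10.8% and 13.4% rose in the same fits. Cdx4 measured 77.7, 165, 206, 309 and 244 in WT and 4810.0, 3146, 3086, 1370.4 and 5361 in the mutants, with a wide gap between the groups (log2 fold change 4.14 ± 0.40 SE, adjusted p = 4.78e-05, limma). Cdx1 measured 260.0, 595, 483, 4824 and 1663 in WT and 5455, 5199, 3243, 5881 and 9137 in the mutants, and WT 4 lay within the mutant range (2.60 ± 0.63 SE, adjusted p = 0.0113, limma). It missed the threshold with edgeR (adjusted p = 0.0615). Cdx2 measured 1480.4, 2149, 1639.7, 1964 and 2534 in WT and 3642, 2917, 2809, 1434 and 4233 in the mutants, and with 4 of 5 mutants above every WT embryo it did not pass (0.56 ± 0.25 SE, adjusted p = 0.122, limma), although it did with DESeq2 (adjusted p = 0.0402) and without mutant 4 (log2 fold change 0.81, adjusted p = 0.00395, limma).

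Of 12 WNT feedback targets, 8 rose and 1 fell in the mutants (median log2 fold change 0.95), with 9 rising without mutant 4 and 2 falling without mutant 5. Beside these and the TALE genes that follow, 11.4% of all tested genes rose and 13.8% fell in limma. Apcdd1 and Nkd2, both inhibitors of WNT signalling, rose by 2.87 ± 0.16 SE and 2.99 ± 0.26 SE (adjusted p = 1.25e-06 and 1.81e-05, limma), and Sp8, a transcription factor of tail bud and limb, fell by 2.57 ± 0.39 SE (adjusted p = 0.000865, limma). Of 9 TALE genes, whose homeodomain products bind DNA together with Hox proteins, 0 rose by limma, edgeR or DESeq2, also at an unadjusted p of 0.05, and 5 fell in each (median -0.69). Pbx3 (-1.29 ± 0.15 SE, adjusted p = 0.000128, limma) and Pknox2 (-1.28 ± 0.29 SE, adjusted p = 0.00850, limma) fell most clearly.

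Of 16 tested genes of retinoic acid metabolism and reception, 3 rose and 1 fell (median log2 fold change -0.06), which for so few genes is near the 11.4% of all tested genes that rose and the 13.8% that fell. Rdh10, which makes the retinaldehyde precursor, rose by 1.13 ± 0.13 SE (adjusted p = 0.000190, limma), Cyp26a1, which degrades retinoic acid, rose by 0.67 ± 0.18 SE (adjusted p = 0.0190, limma), and the receptor gene Rxrg fell by 3.79 ± 0.75 SE (adjusted p = 0.00389, limma). Of these genes 4 fell without mutant 4, 2 fell without WT 1 and 1 rose without WT 5. Of 24 Polycomb and Trithorax genes, which keep Hox chromatin silent or active, 1 rose and 5 fell (median -0.12), again beside 11.4% and 13.8% of all tested genes. The demethylase gene Kdm6b rose by 0.62 ± 0.16 SE (adjusted p = 0.0149, limma), and the Polycomb genes Phc1 and Cbx2 fell by 1.64 ± 0.18 SE and 0.92 ± 0.19 SE (adjusted p = 0.000107 and 0.00484, limma). The number of these genes that fell was 2 without WT 1 or WT 5, 3 without mutant 1, 2, 3 or 5 and 8 without mutant 4, and 3 rose without WT 3.

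Markers of the cell types a whole embryo holds moved with genotype too, and their part in the Hox results was not tested. Presomitic and paraxial mesoderm markers fell for 8 of 9 genes, with summed levels of 5336 to 7161 scaled counts in WT and 194 to 2340 in the mutants. Epiblast markers fell for 6 of 7 (35903 to 48732 against 13891 to 17696) and neural plate markers for 3 of 5 tested (1085 to 1309 against 43.7 to 594). These sums did not overlap between the genotypes. Without mutant 4, 8 presomitic, 5 epiblast and 4 neural plate markers fell. Of all tested genes, 13.8% fell and 11.4% rose in the fit of all embryos.

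Allantois and extra-embryonic mesoderm markers rose for 4 of 9 genes, with sums of 14822 to 20006 in WT and 22079 to 34142 in the mutants, and without mutant 4, 5 rose and 2 fell. Primitive streak markers rose for 3 and fell for 3 of 7 (6052 to 8635 against 4161 to 15660), and without mutant 4, 2 fell. Of the lateral plate and cardiac mesoderm markers 1 of 7 rose (5351 to 7116 against 5621 to 8477), of blood progenitors 1 of 6 (1234 to 2319 against 1975 to 8002), of visceral endoderm 1 of 5 (59251 to 82768 against 49957 to 97419) and of trophoblast 0 of 6 by limma and edgeR (15751 to 19996 against 14362 to 45043). The trophoblast list holds Cdx2, the 1 gene of the 6 that passed with DESeq2 and at an unadjusted p of 0.05 in limma, and without mutant 4, 1 of the 6 rose and 1 fell. Other leave-outs moved these counts as well: without mutant 4, 2 lateral plate markers rose and 2 fell and 3 visceral endoderm markers rose. The count of visceral endoderm markers that rose was 0 when WT 1, 4 or 5 or mutant 1, 2, 3 or 5 was left out singly, and 2 blood markers rose without mutant 2 and 2 fell without WT 3. Maternal decidua markers rose for 1 of 6 genes, Prl8a2, with sums of 550 to 1037 in WT and 930.5 to 12819 in the mutants, highest in mutant 3. With mutants 3 and 4 both left out, all 10 middle Hox genes still passed the threshold in limma (Hoxb5 adjusted p = 0.0415), a check added after the data were seen.

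Among mutants, mutant 5 was highest for 9 of the 10 genes, and the library labelled mutant 4 was lowest for 9. In that library the middle Hox genes other than Hoxa5 stood at 41.5% (Hoxc8) to 73.2% (Hoxb5) of the mean of the other mutants, and Hoxa5 at 107%. Cdx4 stood at 33.4% of the other mutants' mean and Cdx2 at 42.2%, while Cdx1 was at 102% and Axin1 at 213%. The same library had the highest sum among mutants of trophoblast (45043), blood (8002), allantois (34142), presomitic (2340) and neural plate (594) markers. It had the lowest of primitive streak (4161), visceral endoderm (49957) and lateral plate (5621) markers. Hand1 is on both the trophoblast and the allantois list, so their sums are not independent. The part of these markers in the lower Hox levels of that library was not tested. In spite of the lower levels, mutant 4 lay above the highest WT embryo for each of the 10 genes; for Hoxb5 the gap was small (114 against 104).

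Among WT embryos WT 3 was lowest for 6 genes and WT 1 for 4, and the highest values fell in WT 4 (4 genes), WT 5 (4) and WT 2 (2). Across the 45 pairs of genes, Pearson's r of the deviations from the genotype means was taken over the 10 embryos. It ran from 0.0038 for Hoxb8 with Hoxd8 to 0.938 for Hoxb7 with Hoxc8 (median 0.455). Hoxb8 had only 41 reads in the WT libraries together, and counting error at that depth lowers r. The low values therefore do not tell whether genes moved apart within a genotype. Hoxc8 and Hoxd8 stood at 0.916 and Hoxa5 and Hoxc6 at 0.842. Among WT embryos, Hoxa5 and Hoxc6 were both lowest in WT 1 (1.67 and 0 scaled counts) and highest in WT 4. Embryos share a library preparation for all genes, so these r values are descriptions only.

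Outside the Hox clusters, the 5 genes with a mean of at least 50 scaled counts whose log2 profile over the 10 embryos was most like the mean standardized profile of the set were Epha5, Col26a1, Dkk3, Nfam1 and H2-Eb1, with r of 0.993 to 0.980. As deviations from the genotype means, the r values were 0.955, 0.927, 0.872, 0.901 and 0.875 in the same order. The genes were picked by r over the same embryos, which includes these deviations, so the choice itself favoured high values. Epha5, Nfam1 and H2-Eb1 had WT means below 50 (8.83, 39.4 and 28.1), so they met that minimum through their mutant values. Epha5, an ephrin receptor gene, measured 8.83 ± 6.90 scaled counts in WT and 153 ± 107 in the mutants (SD, n = 5). Dkk3, a gene of the Dickkopf family of secreted proteins, measured 210 ± 33.6 and 1001 ± 308, and Col26a1, a collagen gene, 175 ± 47.7 and 1404 ± 423. By the same measure of deviations, Cdx2 stood at 0.773, Cdx4 at 0.735, Cdx1 at 0.712 and Axin1 at -0.532. The caudal genes and Axin1 were not picked by r, so their values cannot be ranked against those of the 5 genes.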

How the data were processed

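RNA-seq values of 5 WT and 5 Axin1;Axin2 mutant whole embryos were deposited as 1 table. Per the submitters' processing notes, the tools included cutadapt 1.6, STAR 2.5.0a, HTSeq 0.5.3 and DESeq, with the build mm10. Each deposited value is a signal: a gene's read count after the authors' division by the library's size factor (0.881 to 1.20). Values of all 20006 genes were whole multiples of 1 step per embryo within 0.01 reads, so whole reads were recovered. The floor of 3 reads covers counting error only, and no molecular identifiers were used. Values after ± are the SE of the fit or the SD over embryos. The SD measures the spread between embryos, and the SE the uncertainty of the fitted difference that follows from it.

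The 15429 genes whose scaled counts averaged 10 or more were compared on log2(scaled count + 1) with limma 3.58.1 (intensity trend) in R 4.3.3, adjusted by Benjamini-Hochberg over all genes tested with a threshold of 0.05. On this scale the fold change of a scarce gene depends on the pseudocount. The tests were checked on simulated data. Alternatives were edgeR 4.0.16 and DESeq2 1.42.0 on the recovered reads, pseudocounts of 0.5 and 5, no filter and a mean of at least 50, TMM and quantile scaling, limma without trend or with array weights, a replicate block and leaving out each embryo. Gene identifiers were matched without their version to GENCODE M21 for 19935 of 20006 genes.

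The 10 genes, the other gene lists and the tests were chosen with earlier results of these data known. Named genes were the 10 members, Axin1, Axin2, the caudal genes, partners in the 22 pairs, up to 2 rising and 2 falling genes per pathway list by smallest adjusted p, and the 5 genes most like the set. Some genes that this rule would name are not reported here.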

Additional observations from a re-analysis of the deposited data

Results flagged for a closer look

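Within each genotype, the highest and lowest embryo of the 10 genes, and of a few genes set beside them, were compared with the nearest other embryo by Dixon's gap test, 30 groups of 5 embryos in all, and 2 were marked at the critical value of 0.71. Chance marks about 1 in 20 groups where values are normally spread, which scaled counts need not be. The gaps were taken on scaled counts, and on the log2 scale of the fits they can be smaller. Hoxa5 in WT 4 stood at 46.5 scaled counts, the next WT embryo at 13.1, and the gap was 0.745 of the range. Hoxb5 in mutant 5 stood at 233.6 scaled counts, the next mutant at 143.4, and the gap was 0.755 of the range. Without WT 4 the log2 fold change of Hoxa5 was 3.61 against 3.05 with it, and without mutant 5 that of Hoxb5 was 0.61 (adjusted p = 0.0884, limma) against 0.79.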

How the results depend on the processing

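The number of middle Hox genes that rose was 8 to 10 and the number that fell was 0 in each of the alternatives, 8 where a mean of at least 50 left Hoxb8 and Hoxc5 untested, and their median log2 fold change ran from 2.53 to 3.27. Among all tested genes 3877 passed the threshold, and 2481 to 4544 when single embryos were left out, the lowest without WT 5. The 22 pairs gave 4 calls under other pseudocounts and scalings and 0 to 7 when single embryos were left out. The smallest possible p of the pair test makes this count move in jumps. The same-numbered embryos did not deviate together (r = -0.079, -0.065, 0.028, 0.062 and 0.079 for numbers 1 to 5), and with a replicate block 3253 genes and the same 10 of 10 Hox genes passed. Pairing by number leaves a sign-flip test of Hox gene pairs that cannot go below p = 0.0625 (exact). Depth limits the WT levels of Hoxc6, Hoxb8 and Hoxc5, at 25, 41 and 42 reads over 5 libraries.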
